A study of Mus musculus with 6 samples.

Results

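The CCAAT/enhancer-binding protein (C/EBP) genes were examined here as places where transcription factors sat on the chromatin of mouse macrophages, with the question of whether C/EBPα occupied its own gene and those of its relatives. The 6 genes were Cebpa, Cebpb, Cebpd, Cebpe, Cebpg and Cebpz, and a binding site, or peak, counted for a gene when the deposited annotation named that gene as the nearest one. By this rule 62 of the 134964 peaks in the 6 lists belonged to the family. Of these, 21 lay at Cebpa, 21 at Cebpg, 13 at Cebpd, 5 at Cebpe, 2 at Cebpb and 0 at Cebpz, and all 62 lay within 100 kb of the transcription start site (TSS).

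C/EBP proteins are basic leucine zipper factors that bind DNA as dimers to a short palindromic element, and they can bind the regulatory DNA of their own genes. C/EBPα drives the step from early progenitors to the granulocyte and monocyte lineage and, with PU.1, acts as a lineage-determining transcription factor (LDTF) in macrophages. IRF8 is an interferon regulatory factor needed for monocyte and macrophage development, often bound together with PU.1, and JUNB is a subunit of the dimeric AP-1 factor.

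Chromatin immunoprecipitation sequencing (ChIP-seq) had been done on bone marrow-derived macrophages (BMDMs) of wild-type mice aged 8 to 12 weeks. Marrow cells were kept for 6 days in L929 supernatant, a source of macrophage colony-stimulating factor (M-CSF). They then received no IL-4 (control) or IL-4 at 20 ng/ml for 1 h, so that both conditions shared the M-CSF culture. Each condition was precipitated with an antibody to C/EBPα, IRF8 or JUNB after fixation with DSG and formaldehyde, with 1 sample per antibody and condition. There were no replicates, so no difference between control and IL-4 was tested, and sequencing depth was unknown.

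The C/EBPα lists held 24486 control and 24612 IL-4 peaks, the IRF8 lists 37525 and 42076, and the JUNB lists 3940 and 2325. No unit is given for the peak score in the files. From its values it was read as a significance on the -log10 scale, which grows with depth and is neither a coverage nor an occupancy. As a check of the antibodies, a C/EBP element (TTGCNNAA on either strand) stood in the central 200 bp of 34.3% of control C/EBPα peaks, against 13.9% of control IRF8 peaks. An interferon response element (GAAANNGAA) stood in 16.1% of control IRF8 peaks and 9.61% of control C/EBPα peaks, and an AP-1 element (TGANTCA) in 55.3% of control JUNB peaks.

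The sequences below are the central 200 bp of the peaks on which the account turns, read from the plus strand of the mm10 (GRCm38, RefSeq) genome, with matches to one searched element in capitals. The first 4 are C/EBPα peaks of the control list, and capitals mark the C/EBP element. The promoter of Cebpa (chr7:35119018-35119217) and the strongest C/EBPα peak at Cebpa (chr7:35127196-35127395) held no match to these letters, while the peak 13.9 kb downstream of the TSS (chr7:35133081-35133280) and the Cebpg promoter (chr7:35057156-35057355) held 1 each.
Cebpa promoter: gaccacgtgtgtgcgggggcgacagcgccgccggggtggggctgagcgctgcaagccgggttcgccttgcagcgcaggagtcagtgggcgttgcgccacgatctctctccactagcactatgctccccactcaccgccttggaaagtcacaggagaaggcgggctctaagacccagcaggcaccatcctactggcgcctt
Cebpa +8.0 kb: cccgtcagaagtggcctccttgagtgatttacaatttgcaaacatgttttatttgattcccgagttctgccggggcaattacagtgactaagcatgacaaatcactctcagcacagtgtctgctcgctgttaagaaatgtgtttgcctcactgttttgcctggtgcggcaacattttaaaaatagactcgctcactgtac
Cebpa +13.9 kb: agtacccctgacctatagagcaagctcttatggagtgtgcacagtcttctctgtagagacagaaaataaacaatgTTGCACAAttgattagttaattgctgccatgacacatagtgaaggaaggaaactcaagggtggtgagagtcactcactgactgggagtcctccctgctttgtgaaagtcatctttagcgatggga
Cebpg promoter: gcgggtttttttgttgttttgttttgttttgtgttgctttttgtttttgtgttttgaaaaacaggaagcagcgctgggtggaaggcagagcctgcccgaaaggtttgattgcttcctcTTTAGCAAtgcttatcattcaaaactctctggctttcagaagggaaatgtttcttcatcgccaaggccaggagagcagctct

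The next 3 are IRF8 peaks, shown because they had the largest score ratio at Cebpa, the highest score of the family and the peak shared by all 3 factors. Capitals mark the interferon response element, which each held once. They are the IL-4 peaks at chr7:35140016-35140215 and chr7:35081233-35081432, and 29 bases around the match in the control peak behind Cebpd (chr16:15890201-15890229).
Cebpa +20.8 kb: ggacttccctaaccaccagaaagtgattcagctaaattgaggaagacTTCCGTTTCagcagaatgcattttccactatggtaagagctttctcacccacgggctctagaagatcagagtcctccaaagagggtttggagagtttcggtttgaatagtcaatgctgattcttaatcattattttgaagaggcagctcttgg
Cebpg -24.8 kb: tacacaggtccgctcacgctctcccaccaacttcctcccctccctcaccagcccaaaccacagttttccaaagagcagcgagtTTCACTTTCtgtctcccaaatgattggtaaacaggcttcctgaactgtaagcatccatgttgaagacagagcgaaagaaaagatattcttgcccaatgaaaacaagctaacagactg
Cebpd +2.9 kb: ttcaattagaTTCCATTTCttcttgagtt

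C/EBPα had 10 peaks at the family in control cells and 10 after IL-4, spread over Cebpa (4 and 5), Cebpg (4 and 4) and Cebpd (2 and 1). IRF8 had 17 and 24, at Cebpa (7 and 5), Cebpg (6 and 7) and Cebpd (4 and 5), and after IL-4 also at Cebpe (5) and Cebpb (2). JUNB had 1 control peak, at Cebpd, and 0 after IL-4. The family C/EBPα scores ran from 5.94 to 43.83 in control cells, with a median of 18.34, and 7 of 10 exceeded the list median of 11.20. After IL-4 they ran from 3.49 to 43.88 with a median of 14.07, and 6 of 10 exceeded the list median of 11.22. IRF8 scores spread more widely, from 4.09 to 122.03 in control cells and from 3.46 to 174.97 after IL-4.

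**Figure D1:**
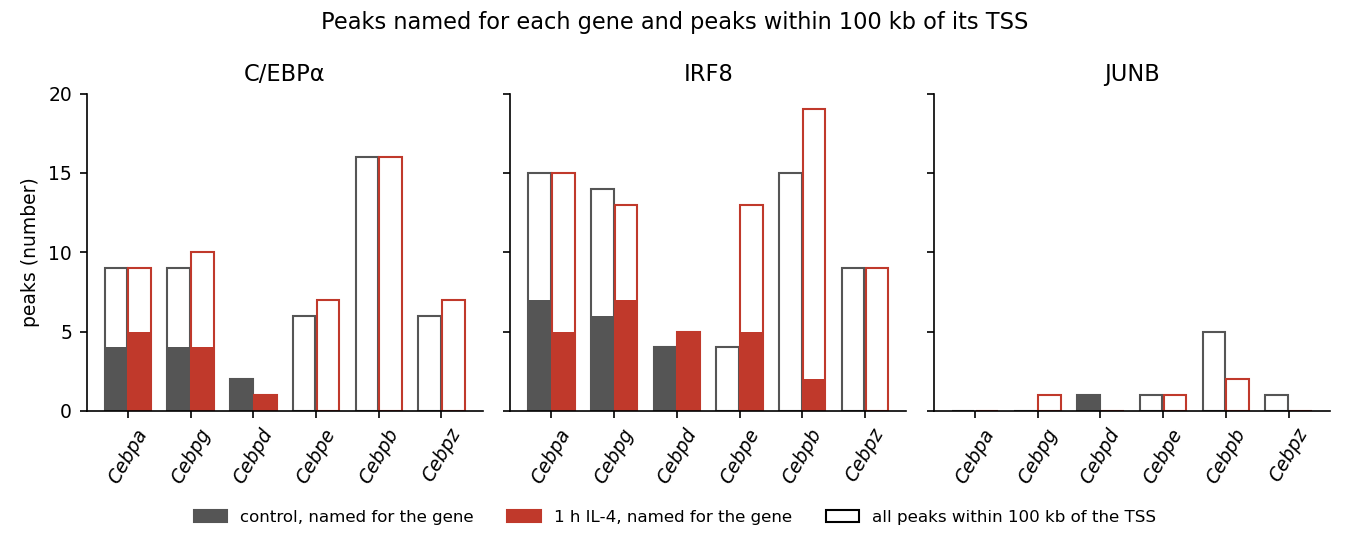
Number of peaks per gene in the C/EBPα, IRF8 and JUNB lists, for control (grey) and 1 h IL-4 (red). Filled bars are peaks whose nearest gene was the one named and open bars are all peaks within 100 kb of its TSS; at Cebpb the open C/EBPα bars reach 16 in both conditions while the filled bars are 0.

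Cebpa, the gene of C/EBPα itself, carried C/EBPα at 4 places in both conditions. The promoter peak, centred -176 bp from the TSS in the control list, scored 18.38 in control cells and 10.15 after IL-4. The intergenic peak at +8.0 kb was the strongest C/EBPα peak of the gene, with a score of 25.83 in control cells and 21.01 after IL-4. The peak at +13.9 kb, in an L2a LINE repeat, scored 22.32 and 13.65, and it was the only C/EBPα peak at Cebpa with a C/EBP element (TTGCACAA) in its central 200 bp. The peak at +31.8 kb was weak in both lists, with scores of 5.94 and 6.29. One more peak, at -20.4 kb, was listed after IL-4 only and scored 3.49, near the bottom of its list, where 3.56% of peaks scored lower. Thus self-binding was listed at the promoter and at 3 downstream sites in both conditions. The score was lower after IL-4 at the promoter, +8.0 kb and +13.9 kb. Such counts are not particular to Cebpa. Of genes named in the C/EBPα lists, 21.6% had at least 4 peaks in control cells and 14.2% at least 5 after IL-4. The strongest control peak of Cebpa, at +8.0 kb, scored above 77.1% of its list.

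IRF8 at Cebpa was distributed differently. Its highest peak stood at +31.8 kb, with scores of 49.13 in control cells and 49.71 after IL-4, where C/EBPα was weak. At +20.8 kb the IRF8 score was 14.11 in control cells and 48.47 after IL-4, a ratio of 3.44 that was the largest among the family pairs, and no C/EBPα peak was listed there. The central 200 bp of the IL-4 peak also held an AP-1 element and a STAT6-type element (TTC, 4 free bases, GAA). The latter overlapped the interferon response element. The control peak, centred at +20.9 kb, covered the same bases, but its central window lay farther downstream and held no full match. The 2 peaks therefore differed here in the place of the window and not in the elements they covered. The peak at +18.5 kb, in an MTD long terminal repeat, scored 17.09 and 11.41, and that at -20.4 kb scored 9.25 and 14.2. The annotation gave IRF8 1 promoter peak in each condition, but they did not overlap: the control peak was centred at -0.7 kb and scored 5.02, and the IL-4 peak, over the C/EBPα promoter peak, scored 6.83. IRF8 peaks at -12.5 kb (4.09) and +8.0 kb (8.0) were listed in control cells only. JUNB had 0 peaks within 100 kb of the Cebpa TSS in either condition.

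**Figure D2:**
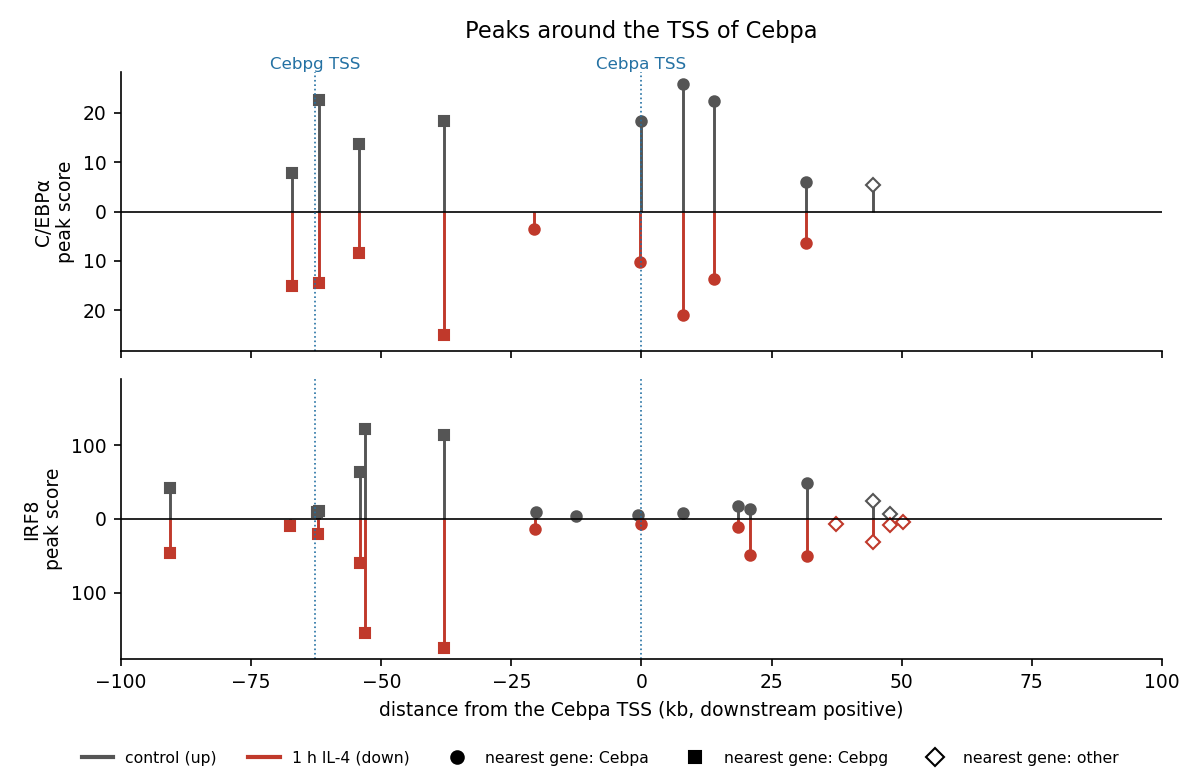
Peak score (vertical axis, control upwards, 1 h IL-4 downwards) against distance from the Cebpa TSS in kb, for C/EBPα (top) and IRF8 (bottom), each with its own scale. Circles are peaks named for Cebpa, squares for Cebpg and open diamonds for another gene; the highest IRF8 peaks, 122.03 in control cells and 174.97 after IL-4, lie between the TSSs of Cebpg and Cebpa.

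Cebpg encodes C/EBPγ, a member without the usual activation domain that pairs with other leucine zipper proteins such as ATF4. Its TSS lies 62.7 kb from that of Cebpa on the other strand, with no other protein-coding TSS between them in GENCODE. C/EBPα was listed at 4 places in both conditions. The promoter peak scored 22.63 in control cells and 14.5 after IL-4 and held a C/EBP element (TTTAGCAA), and the peak at -8.6 kb scored 13.77 and 8.33. The peak at -24.7 kb scored 18.31 and 25.11. The peak at +4.5 kb, in the single intron of the gene, scored 7.81 and 15.16, a ratio of 1.94 that was the largest for C/EBPα at the family, and it held a STAT6-type element in both lists. Scores were therefore lower after IL-4 at the promoter and -8.6 kb, and higher at the other two places.

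The strongest IRF8 peaks of the family stood upstream of Cebpg. At -24.7 kb, which lies -38.0 kb from the Cebpa TSS, IRF8 scored 113.34 in control cells, rank 1151 of its list, and 174.97 after IL-4, rank 457. At -9.6 kb it scored 122.03 and 154.49, with no C/EBPα peak in either list. At -8.6 kb it scored 63.67 and 60.03, beside the C/EBPα peak. At the promoter 2 control peaks, with scores of 11.05 and 8.86, were covered by a single IL-4 peak of 20.06. In intron 11 of 14 of the neighbouring Pepd, at +27.9 kb, IRF8 scored 41.27 and 45.68, and 2 weaker peaks, at +4.9 kb (9.7) and +71.9 kb (3.97), were listed after IL-4 only.

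Cebpd encodes C/EBPδ, an inducible member known to sustain inflammatory gene expression in macrophages. Its promoter carried none of the 3 factors in these lists. The strongest C/EBPα peak of the family lay just behind the gene, at +2.9 kb where the annotation gives a transcription termination site, and its score was 43.83 in control cells and 43.88 after IL-4. IRF8 scored 71.11 and 68.98 there. JUNB scored 5.37 in control cells and was not listed after IL-4, and this was the sole JUNB peak of the family. The place held an interferon response element (TTCCATTTC) and no C/EBP or AP-1 element in its central 200 bp. This was the only family region with all 3 factors.

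The other Cebpd peaks lay within introns of the next gene, Spidr, since the territory assigned to Cebpd reaches far downstream. At +69.4 kb, in intron 10 of 19, a C/EBPα peak of 5.99 was listed in control cells only, while IRF8 scored 15.36 and 15.15; this place held a C/EBP element (TTGCGGAA) and an AP-1 element (TGAATCA). In intron 8, IRF8 scored 63.34 and 48.52 at +97.7 kb and 10.59 and 8.0 at +99.3 kb. An IRF8 peak of 7.46 at +27.1 kb was listed after IL-4 only. All 4 paired IRF8 scores at Cebpd were lower after IL-4, by ratios of 0.755 to 0.986, so none was past 1.5 times.

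Cebpe encodes C/EBPε, which acts late in granulocyte maturation, and Cebpb encodes C/EBPβ, a main C/EBP protein of macrophages. Both had peaks named for them in the IRF8 list after IL-4 and in no other list. At Cebpe the 5 scores were 4.52 at -23.6 kb (exon 5 of 11 of Slc7a8), 6.83 at -2.1 kb, 7.64 at the promoter, 6.64 at +6.4 kb and 3.46 at +11.0 kb, all below the list median of 9.61. At Cebpb they were 6.04 at -8.8 kb and 5.5 at the promoter, centred -7 bp from the TSS. These 7 peaks made up 7 of the 11 family IRF8 peaks listed after IL-4 only. All 7 scored below the median of their list, with 7.49% to 40.6% of its peaks scoring lower.

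C/EBPα peaks at the family that were listed in 1 condition only were counted beside the whole lists. With 10 family peaks per list, these counts are too small to set the family apart. Of the 10 control peaks 1 had no IL-4 partner, against 21.4% of all C/EBPα control peaks, and of the 10 IL-4 peaks 1 had no control partner, against 22.0% of the whole list. Among the 9 pairs 4 had a score at least 1.5 times lower after IL-4, where 17.8% of all pairs did, and 1 had a score at least 1.5 times higher, where 17.7% did. The 4 lower ones were both promoters, Cebpa +13.9 kb and Cebpg -8.6 kb. The median log2 ratio of IL-4 to control score was -0.30 over the 9 pairs, with an SD of 0.62 among pairs, and -0.0038 over all 19111 C/EBPα pairs. The pairs are different places in the same 2 samples, not replicates.

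IRF8 had more family peaks after IL-4 than in control cells. Of the 24 IL-4 peaks 11 had no control partner, against 30.4% of all IRF8 peaks, and the IL-4 list as a whole was longer. Of the 17 control peaks 3 had no IL-4 partner, against 21.4%. Among 13 pairs 4 scored at least 1.5 times higher after IL-4, against 23.6% of all pairs, at Cebpa -20.4 kb and +20.8 kb and at Cebpg -24.7 kb and the promoter, and 0 scored at least 1.5 times lower, against 17.5%. The pair at the Cebpg promoter set a wide IL-4 peak against only 1 of the control peaks it covered. The median log2 ratio was 0.017 over the 13 pairs and 0.083 over all 29110. The 1 JUNB control peak had no IL-4 partner, as for 64.2% of all JUNB control peaks, so that its loss was the more common outcome in that list.

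**Figure D3:**
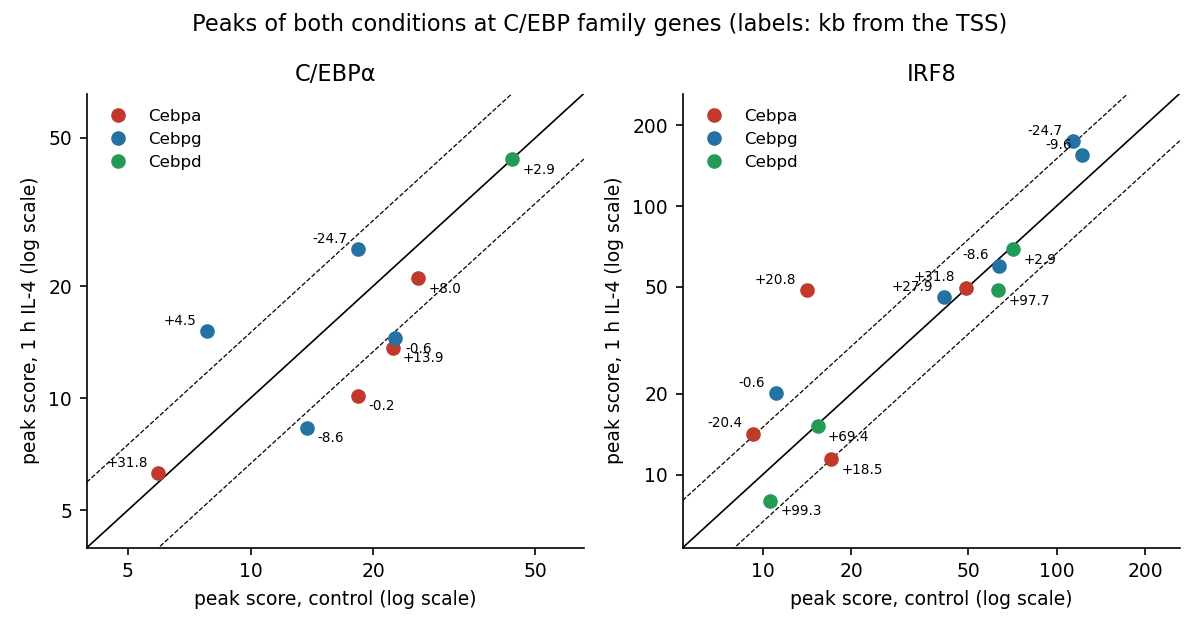
Peak score after 1 h IL-4 against the control score for family places listed in both conditions (log axes), for C/EBPα (9 pairs) and IRF8 (13 pairs), labelled by distance from the TSS in kb. The solid line marks equal scores and dashed lines a ratio of 1.5; the IRF8 point farthest from equality is Cebpa +20.8 kb (14.11 and 48.47).

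Merging overlapping peaks gave 29 regions, of which 11 held C/EBPα and 27 held IRF8 in at least 1 condition. Both factors were listed in 9 regions, and in 5 of them both were listed in both conditions: Cebpa +31.8 kb, Cebpd +2.9 kb, and Cebpg -24.7 kb, -8.6 kb and the promoter. The 2 regions with C/EBPα alone were Cebpa +13.9 kb and Cebpg +4.5 kb. Of the 10 family C/EBPα peaks 7 overlapped an IRF8 peak in each condition (70.0%, Wilson 95% interval 39.7 to 89.2%), against 58.1% of all C/EBPα peaks in control cells and 60.6% after IL-4. A C/EBP element stood in 3 of 10 family C/EBPα peaks in control cells and 2 of 10 after IL-4, against 34.3% and 33.3% of all peaks of those lists. With the whole peak searched, the order turned, with 4 of 10 in control cells and 5 of 10 after IL-4, against 38.1% and 37.6% of all peaks. The places added were Cebpg -24.7 kb in both conditions and Cebpa +8.0 kb and +31.8 kb after IL-4, while Cebpd +69.4 kb counted in control cells only, where it was listed. The intervals for the family in the central 200 bp are wide, cover counting error only, and take in the share of the whole list in each case. Over the whole lists a STAT6-type element stood in 6.45% of control and 10.2% of IL-4 C/EBPα peaks, and at the family in 1 of 10 in both.

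The gene named for a peak is the one with the nearest TSS, and this set much of the order above. Downstream of Cebpb the files named every peak within 100 kb for the noncoding gene A530013C23Rik, and most of the upstream ones for Tmem189 or Ube2v1. The GENCODE TSS of Ndufaf7 lies 70 bp from that of Cebpz. When all peaks within 100 kb of the Cebpb TSS were taken, C/EBPα had 16 in each condition, IRF8 15 in control cells and 19 after IL-4, and JUNB 5 and 2. Cebpb was then the family gene with the most C/EBPα peaks around it, although none was named for it. The count says nothing of which gene these places act on.

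The C/EBPα peaks around Cebpb included scores above any named for the family. At +65.3 kb, named for A530013C23Rik, C/EBPα scored 77.21 in control cells, rank 918 of its list, and 125.31 after IL-4, rank 249. At +71.3 kb it scored 96.44 and 116.65. At -39.5 kb, named for Tmem189, it scored 87.42 in control cells, and the paired IL-4 peak scored 38.54. The first is shown because it was the highest C/EBPα score around any of the 6 genes, and its IL-4 peak (chr2:167754090-167754289) held 2 C/EBP elements (TTGTGCAA and TTGAGCAA), in capitals.
Cebpb +65.3 kb: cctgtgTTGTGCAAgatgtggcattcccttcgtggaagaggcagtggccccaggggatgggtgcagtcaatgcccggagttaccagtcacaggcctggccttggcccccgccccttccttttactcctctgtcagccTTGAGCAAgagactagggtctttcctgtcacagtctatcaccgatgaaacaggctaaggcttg

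At these 3 places IRF8 was listed too, with 17.22 in control cells and 20.49 after IL-4 at +65.1 kb, 23.14 in control cells and 25.92 in the paired IL-4 peak at +71.4 kb, and 25.73 and 23.87 at -39.4 kb. Its higher scores lay elsewhere. IRF8 scored 63.55 in control cells and 95.77 after IL-4 at +9.2 kb from the Cebpb TSS, where no C/EBPα peak was listed, 48.97 and 58.3 at +52.0 kb, and 29.78 and 6.73 at +28.5 kb. JUNB scored 17.65 in control cells and 6.99 after IL-4 at -39.4 kb, and 15.14 and 3.92 at +71.3 kb, while its control peaks at +26.3 kb (4.75), +52.0 kb (4.62) and +65.1 kb (6.16) had no IL-4 partner. JUNB was thus lower or not listed after IL-4 at all 5 places, as for most of its list, where 64.2% of control peaks had no IL-4 partner and 1035 of 1406 pairs scored lower.

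**Figure D4:**
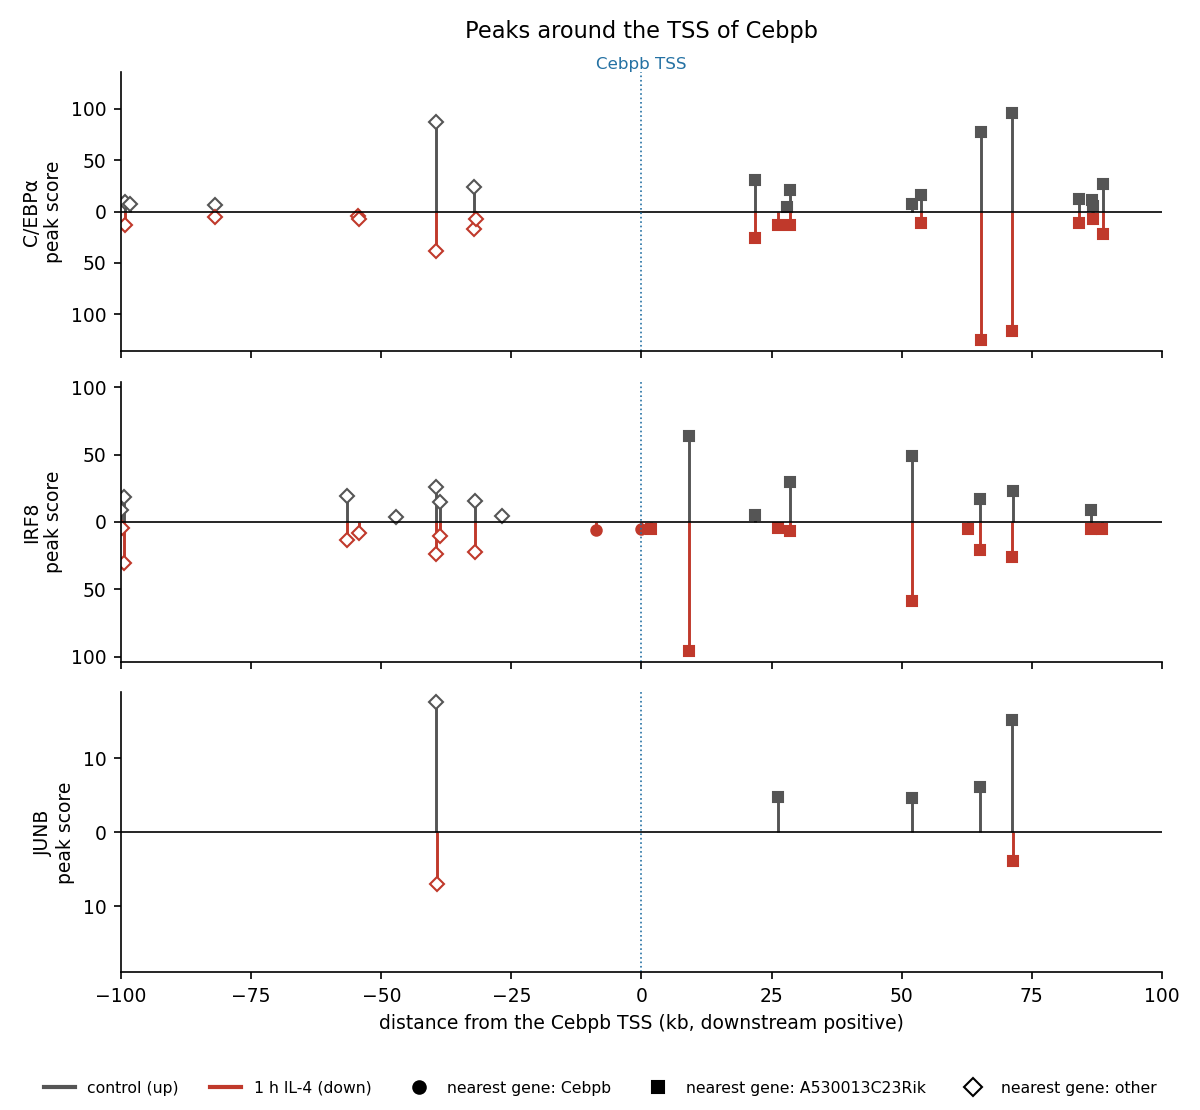
Peak score (control upwards, 1 h IL-4 downwards) against distance from the Cebpb TSS in kb for C/EBPα, IRF8 and JUNB, each with its own scale. Circles are peaks named for Cebpb, squares for A530013C23Rik and open diamonds for other genes; the highest C/EBPα peaks stand at +65.3 and +71.3 kb and were not named for Cebpb.

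Cebpz, whose product binds CCAAT boxes but is no leucine zipper protein, had 0 peaks named for it. Within 100 kb, C/EBPα had 6 peaks in control cells and 7 after IL-4, and IRF8 had 9 and 9. The nearest, at -2.1 kb and named for Ndufaf7, scored 61.93 and 68.86 for C/EBPα and 29.71 and 20.32 for IRF8, and JUNB scored 11.54 there in control cells only. Farther out, at -78.4 kb in the control list and named for Prkd3, C/EBPα scored 8.59, against 43.74 in the paired IL-4 peak. IRF8 scored 5.58 in control cells and 25.97 after IL-4 at -78.1 kb. The C/EBPα pair is uneven, since the narrower control peak lay inside the wide IL-4 peak. That control peak did not overlap the control IRF8 peak. Around Cebpe, C/EBPα had 6 and 7 peaks and IRF8 4 and 13, and the highest C/EBPα score, 59.43 in control cells and 63.33 after IL-4, was at -42.6 kb and named for Slc7a8. Around Cebpd every peak within 100 kb was named for Cebpd.

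The genes whose highest scores in the 6 lists were most like those of a member were found by Euclidean distance of log2(score + 1) over 14930 genes. For Cebpa they were A430078G23Rik (distance 0.153), Sycp3 (0.262) and Sergef (0.292). For Cebpd they were Trim32 (0.213), Sh3glb1 (0.373) and Kit (0.415), and for Cebpg they were Celf4 (0.266), Gm1647 (0.315) and Cenpc1 (0.327). The comparison was made over only 6 values per gene, many of them 0.

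A list of 15 genes that act with, regulate or respond to C/EBP proteins was read for comparison. C/EBPα had peaks at 13 of the 15, in number 68 in control cells and 82 after IL-4. Such a peak was common, since the C/EBPα lists named 9327 genes in control cells and 9319 after IL-4, of 14930 named in any list. Of the control peaks 13.2% had no IL-4 partner and of the IL-4 peaks 28.0% had no control partner, where the shares over all C/EBPα peaks were 21.4% and 22.0%. Trib1, whose pseudokinase product promotes degradation of C/EBPα, had 13 C/EBPα peaks in control cells and 17 after IL-4, with highest scores of 136.87 and 181.94. Runx1, a haematopoietic factor that acts on Cebpa in progenitors, had 21 and 27. Spi1, the gene of PU.1 and named Sfpi1 in the files, had 3 and 2, with highest scores of 83.0 and 93.16. Mpo, a granule protein gene of the neutrophil lineage, had 1 C/EBPα peak in each condition, scoring 8.85 in control cells and 8.46 after IL-4. Elane and Lcn2, also granule protein genes of that lineage, had no peak named for them in any list. Peaks near them but named for another gene were not counted.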

How the data were processed

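ChIP-seq peaks of C/EBPα, IRF8 and JUNB in control and IL-4-treated BMDMs were read from 6 lists, 1 per sample. Per the submitters' processing notes the authors used BWA 0.7.10, SAMtools 0.1.19, MACS2 2.0.10 and HOMER 4.2 on mm10, and per the study's methods they kept peaks under a q-value limit of 0.01 and removed blacklisted regions. The control library, and the library kit of each sample, are not given in the sources used here, so depth, kit and IL-4 cannot be told apart. The deposited score has no stated unit, and 1 to 48 peaks per list scored below 2. The deposited distance to the TSS, annotation and nearest gene name were used as the authors gave them, and a list of nearest genes depends on the annotation behind it.

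From these lists, peaks overlapping by at least 1 bp were taken as the same, paired 1 to 1 by largest overlap, and a score ratio of 1.5 was marked. A peak of a place absent from the other list may lie below its threshold. The motifs TTGCNNAA, TGANTCA and GAAANNGAA and a STAT6-type element were searched on both strands in the central 200 bp, with coordinates 1-based and starts as in the files. Supplied GENCODE and RefSeq annotation of GRCm38 gave neighbouring TSSs and the older symbol of 1 gene. Named genes were the 6 members, the 3 genes most like each member present in at least 4 lists, and 15 partner genes. Members and lists were chosen with earlier results of these data known. Scripts in Python 3.11.15 with numpy 2.4.6, pandas 2.3.3, scipy 1.17.1, pysam 0.24.0 and matplotlib 3.10.9 passed 6 of 6 checks on simulated peaks. Alternatives were a stricter score, other overlaps, rank matching, a whole-peak or narrower motif window and other gene assignments, of which the nearest protein-coding TSS and the 100 kb window were chosen after seeing the data.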

Additional observations from a re-analysis of the deposited data

Results flagged for a closer look

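The change in the number of family peaks differed in direction between factors, which was not tested with 1 sample per group. IRF8 had 7 more peaks after IL-4 (17 and 24), whereas JUNB had 1 fewer, a difference of -1 (1 and 0), and C/EBPα had 10 in both. The whole lists moved in the same directions, from 37525 to 42076 peaks for IRF8 and from 3940 to 2325 for JUNB. The sizes were not matched for IRF8, where 11 of the 24 family peaks after IL-4 had no control partner, against 30.4% of the whole list.

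The median log2 ratio of IL-4 to control score over paired family peaks was -0.298 for C/EBPα and 0.0169 for IRF8, which differ in sign and were not tested. Pairs went both ways for each factor, with 4 higher and 5 lower after IL-4 for C/EBPα and 7 higher and 6 lower for IRF8. The IRF8 median lay close to no change, so the difference in sign carries little. At the Cebpg promoter the 2 factors went opposite ways, with C/EBPα at 22.63 in control cells and 14.5 after IL-4 and IRF8 at 11.05 and 20.06. The IRF8 pair is uneven, since the IL-4 peak, 586 bp wide, also covered a control peak of 8.86 that stayed unpaired.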

How the results depend on the processing

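Of 68 values under alternatives for 20 results, 62 stayed within the limits set for an unchanged value, 6 moved and 0 reversed. The assignment of peaks to genes moved most. With the nearest TSS of any GENCODE gene, small and predicted noncoding genes included, the family had 3 C/EBPα peaks in control cells, 3 after IL-4, 4 IRF8 control peaks and 11 IRF8 IL-4 peaks, in place of 10, 10, 17 and 24. With the nearest protein-coding TSS, chosen after seeing the data, it had 10, 10, 16 and 21. With scores of at least 5 only, C/EBPα peaks gained after IL-4 were 0 in place of 1, since the gained peak scored 3.49. With lists matched by rank, JUNB peaks lost were 0 in place of 1, since the weaker part of the longer list, which held that peak, was left out. With a C/EBP element searched in the whole peak, 4 of 10 family C/EBPα peaks held it in control cells and 5 of 10 after IL-4, and in the central 100 bp 2 and 1, in place of 3 and 2, all within the intervals of the latter. No paired analysis was possible because each group had 1 sample, and for the same reason no sample could be left out. The unknown depth limits every statement on a peak listed in 1 condition only, most of all for the low IRF8 scores at Cebpe and Cebpb.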

Other observations

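Near Slc7a10, the gene beyond Cebpa on its downstream side, C/EBPα had a control peak of 5.44 at +44.4 kb from the Cebpa TSS with no IL-4 partner, and IRF8 scored 23.65 in control cells and 31.93 after IL-4 beside it. An IRF8 peak of 7.41 at +37.4 kb, also named for Slc7a10, was listed after IL-4 only.

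Within 100 kb of the Cebpg TSS, JUNB had 1 peak, listed after IL-4 only, at +98.4 kb and named for Pepd, with a score of 7.51. C/EBPα scored 10.23 in control cells and 16.88 after IL-4 there, and IRF8 11.82 and 11.87. It was the single JUNB peak around the 6 genes that was listed after IL-4 only.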
